A study of Mus musculus with 8 samples.

Results

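Glutamatergic neurons of the paraventricular nucleus (PVN), a region of the hypothalamus, are the 1427 cells, of 35672 in all (4.0%), to which the authors' annotation gives the type Glut. The annotation splits them into 3 clusters. Glut_1 held 874 cells (61.2%), Glut_2 344 cells (24.1%) and Glut_3 209 cells (14.6%). The GABA neurons, the other large neuron type used for the ratios below, numbered 2654 cells. The Glut label was taken as the authors gave it. Its defining marker, Slc17a6, was not checked, because gene-level expression is not analysed here, and the clusters are therefore described by their depth, their mitochondrial share and their scores.

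Slc17a6 encodes the vesicular glutamate transporter VGLUT2, which loads glutamate into synaptic vesicles and is the transporter that most excitatory neurons of the hypothalamus use. The PVN starts the hormonal response to stress, and its output neurons receive both glutamatergic excitation and GABAergic inhibition, much of it from neurons in and around the nucleus. Many of the neuroendocrine neurons of the PVN are themselves glutamatergic.

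All mice were C57BL/6, and each of the 8 libraries was 1 combination of sex, cohort and exposure. In the baseline cohort, 10 weeks of age, unstressed controls were set against mice restrained once for 15 min (acute restraint stress, ARS). In the other cohort, named CMS and 11 weeks of age, controls were set against mice that went through 21 days of chronic mild stress (CMS) and then the restraint. The controls of that cohort carry CMS in their titles but are described as unstressed, so the 2 exposures of its stressed mice cannot be told apart. A cohort difference mixes age, experiment and the chronic stress of the stressed mice, and the cohort fits do not separate them. The PVN was taken 5 h after the restraint, dissociated and made into droplet libraries. Groups had no replicate library, and the number of animals behind each library is not in the labels. A p-value here thus reflects just the spread among these 8 libraries, which the edgeR and limma fits share across types or clusters.

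A library held 3523 to 5777 cells, with 9924892 to 15760435 unique molecular identifiers (UMIs, the count of captured RNA molecules) in all, and 92 to 252 Glut cells. Every male library held fewer cells than any female one. Cell barcodes found in more than 1 library numbered 722 of 34942, and 52 Glut cells (3.64%) carried such a barcode, against 4.07% of all cells. A dissociated sample does not tell fewer neurons in the tissue from fewer that survived dissociation.

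The clearest contrast among Glut cells was one of depth. Glut_1 cells had few UMIs and a high mitochondrial share, and Glut_2 and Glut_3 cells had many UMIs and a low one. The median Glut_1 cell had 2885 UMIs (interquartile range 2070 to 4143), the median Glut_2 cell 7649 (6192 to 8504) and the median Glut_3 cell 6747 (5610 to 7859). The median number of detected genes was 1538.5 in Glut_1, 3185.5 in Glut_2 and 2899 in Glut_3. The clusters were made from the same counts, so these differences are a description and were not tested. More than 4000 UMIs were found in 27.2% of Glut_1 cells, 93.6% of Glut_2 cells and 95.2% of Glut_3 cells.

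Mitochondrial transcripts made up a median of 14.5% of the UMIs of a Glut_1 cell, against 3.47% in Glut_2 and 3.61% in Glut_3. A share above 10% was found in 673 Glut_1 cells (77.0%), but in 2 Glut_2 cells (0.581%) and 3 Glut_3 cells (1.44%). No cell of any type had a share above 30.0%, so the upper tail of Glut_1 may be cut short. The higher share of Glut_1 went with more mitochondrial UMIs as well as with fewer other UMIs. A median Glut_1 cell held 419.5 mitochondrial UMIs, against 255.5 in Glut_2 and 242 in Glut_3. Its median of UMIs from all other genes was 2444, against 7341 and 6530.

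**Figure D1:**
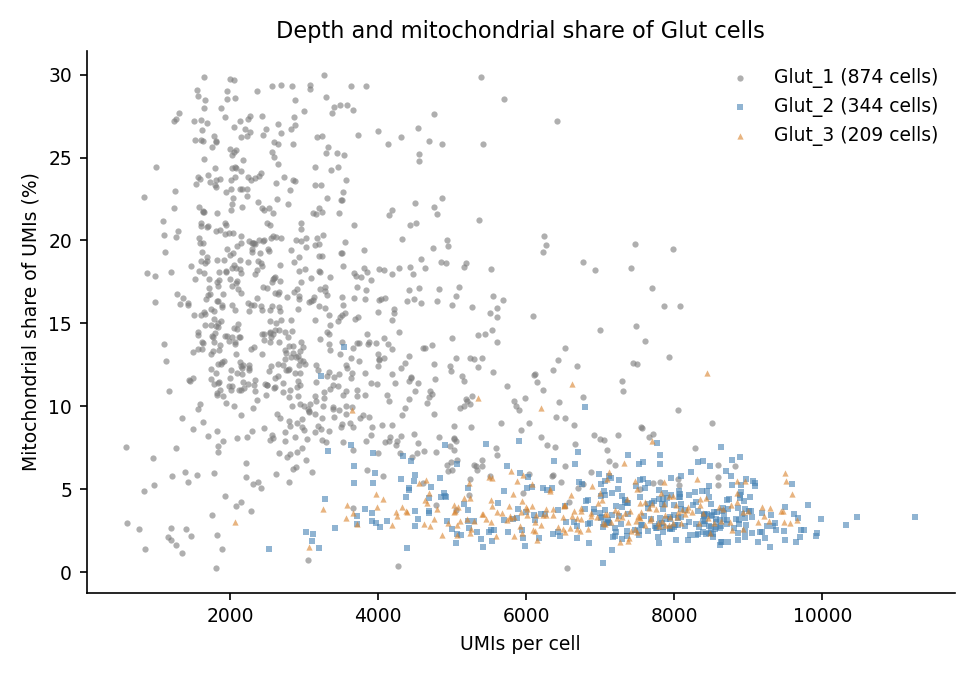
Each point is 1 Glut cell, placed by its UMIs (horizontal axis) and by the mitochondrial share of its UMIs in percent (vertical axis), and coloured by cluster. Glut_1 cells fill the left of the plot and reach a share of 30.0%, while Glut_2 and Glut_3 cells overlap each other at the lower right, with medians of 3.47% and 3.61%.

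The same order held in the single libraries. Glut_1 had the lowest median UMIs, the lowest median genes, the highest mitochondrial share and the most mitochondrial UMIs of the 3 clusters in 8 of 8 libraries. Its library medians ran from 2344 to 3342.5 UMIs, below every Glut_2 median (6815 to 7996.5) and every Glut_3 median (5414 to 8060.5). Its median mitochondrial share ran from 13.4% to 16.6%, above every value of Glut_2 (2.97% to 4.43%) and of Glut_3 (2.94% to 3.93%). Glut_2 and Glut_3 were not set apart in this way. Glut_2 had more UMIs than Glut_3 in 6 of 8 libraries and more genes in 7 of 8, and the mitochondrial share was higher in Glut_2 in 4 of 8.

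The mitochondrial contrast was also present among cells of like depth. All 190 Glut cells with fewer than 2000 UMIs belonged to Glut_1. Between 4000 and 6000 UMIs, where all 3 clusters had cells in each library, 166 Glut_1 cells had a median mitochondrial share of 12.4%, against 3.65% in 58 Glut_2 cells and 3.65% in 58 Glut_3 cells. Between 6000 and 8000 UMIs the medians were 9.32% in 62 Glut_1 cells, 3.73% in 127 Glut_2 cells and 3.46% in 96 Glut_3 cells. From 8000 UMIs on, the 10 Glut_1 cells had 6.41%, against 3.30% in 137 Glut_2 cells and 3.68% in 45 Glut_3 cells. Across these bins the share of Glut_1 was lower in the deeper cells, while that of Glut_2 and Glut_3 stayed between 3.30% and 3.73%.

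Of the 3 Glut clusters, Glut_2 lay closest to the upper end of the deposited gene numbers. No cell of any type in the table had more than 3499 genes, and 128 Glut_2 cells (37.2%) lay within 200 genes of that number. The same held for 32 Glut_3 cells (15.3%), 11 Glut_1 cells (1.26%) and 2.03% of all cells, and for 347 GABA_2 cells (33.7%), a share near that of Glut_2. The sources used here do not give the filters on cells, so the upper tail of Glut_2 may be cut short. The number of genes per 1000 UMIs was 532 in the median Glut_1 cell, 420 in Glut_2 and 425 in Glut_3.

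The scores set the clusters apart less than depth did. The doublet score, on which a higher value marks a cell more like a mix of cells, had a median of 1.99 in Glut_1, 1.73 in Glut_2 and 1.67 in Glut_3. A score of exactly 0 was given to 17.4% of Glut_1 cells, 3.49% of Glut_2 cells and 0.478% of Glut_3 cells, and within Glut_1 to 45.8% of the cells with fewer than 2000 UMIs. The S and G2/M scores sum up genes that dividing cells use before and during division. The mean S score was -0.0132 in Glut_1, -0.00471 in Glut_2 and 0.00153 in Glut_3, with SDs over cells of 0.0396, 0.0355 and 0.0384. It was lower in Glut_1 than in Glut_3 in 8 of 8 libraries. The mean G2/M score was -0.0213, -0.0228 and -0.0181, with SDs over cells of 0.0390, 0.0310 and 0.0340, and no division of these neurons is read from either score.

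A like split ran through the GABA neurons. GABA_1, with 1624 cells, had a median of 2979 UMIs and a mitochondrial share of 14.2%, and GABA_2, with 1030 cells, had 7629 UMIs and 3.28%. The levels of Glut_1 were thus near those of GABA_1, and the levels of Glut_2 and Glut_3 near those of GABA_2. The cells above 4000 UMIs came to 53.2% of Glut and 53.4% of GABA neurons, against 18.7% of all cells.

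The mean share of Glut neurons among all cells was close in stressed and control mice, while single libraries varied. In female libraries the share was 3.62% (95% Clopper-Pearson interval 3.14 to 4.14) in baseline control, 4.36% (3.85 to 4.92) in baseline ARS, 3.60% (3.08 to 4.18) in CMS control and 3.51% (3.02 to 4.06) in CMS ARS mice. In male libraries it was 3.76% (3.17 to 4.43), 2.40% (1.94 to 2.94), 5.08% (4.40 to 5.83) and 6.05% (5.28 to 6.88) in the same order. The female values lay close together and the male ones spread widely, with the lowest and the highest of all 8 libraries in stressed males. These intervals cover counting error only. The mean share was 4.08% ± 1.54 (SD, n = 4) in stressed and 4.01% ± 0.713 in control libraries, a log2 fold of 0.02 (SE 0.24, edgeR adjusted p = 0.944). For stress, edgeR called 0 of the 17 types (0%), and 0 had an unadjusted p below 0.05. Neither DESeq2 nor limma on log odds called Glut neurons. By sex the log2 fold of Glut neurons was -0.14 (edgeR adjusted p = 0.960), where 1 of 17 types was called (5.88%). By cohort it was 0.34 (edgeR adjusted p = 0.333), where 3 of 17 types were called (17.6%). Without single libraries this value ran from 0.07 (male baseline ARS left out) to 0.55 (female baseline ARS left out), and it was 0.15 without the male CMS ARS library.

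For the numbers of cells per cluster among all cells, edgeR called 0 of 32 clusters between stressed and control mice (0%), and 0 had an unadjusted p below 0.05. The log2 folds were -0.22 (SE 0.28) for Glut_1, 0.40 (SE 0.31) for Glut_2 and 0.41 (SE 0.51) for Glut_3 (edgeR adjusted p = 0.953 for each). Between female and male mice they were -0.19, 0.03 and -0.31 (edgeR adjusted p = 0.976 for each), where edgeR called 0 of 32 clusters (0%) and 3 had an unadjusted p below 0.05. Between the CMS and the baseline cohort, edgeR called 1 of 32 clusters (3.12%), none of them of Glut neurons. Glut_2 had the largest cohort value of the 3, a log2 fold of 0.81 (SE 0.32, unadjusted p = 0.0272, edgeR adjusted p = 0.174), against 0.07 for Glut_1 and 0.61 for Glut_3.

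The mix of the clusters among Glut cells varied from library to library. Glut_1, the shallow cluster, made up 68.7% of Glut cells in female baseline control, 60.3% in female baseline ARS, 71.2% in female CMS control and 44.6% in female CMS ARS mice. In male mice the same series was 76.3%, 67.4%, 54.2% and 55.4%. The stressed value was lower in 3 of the 4 matched pairs, and stressed (44.6% to 67.4%) and control (54.2% to 76.3%) libraries overlapped. The widest gap was in female CMS mice, where Glut_1 stood 26.6 percentage points lower after stress (95% Clopper-Pearson interval 37.1% to 52.3% against 63.6% to 78.0%).

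Glut_2 made up 19.4%, 21.4%, 22.1% and 40.0% of Glut cells in the female libraries, in the same order, and 18.7%, 17.4%, 20.8% and 29.6% in the male ones. The 2 libraries of mice given chronic stress and restraint were the highest, and the other 6 lay between 17.4% and 22.1%. Glut_3 made up 11.9%, 18.3%, 6.75% and 15.4% in the female and 5.04%, 15.2%, 25.0% and 15.0% in the male libraries. Its control values ranged from 5.04% to 25.0% and enclosed all 4 stressed values, which lay between 15.0% and 18.3%. The lowest Glut_3 value rests on 7 cells, in the male baseline control library.

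**Figure D2:**
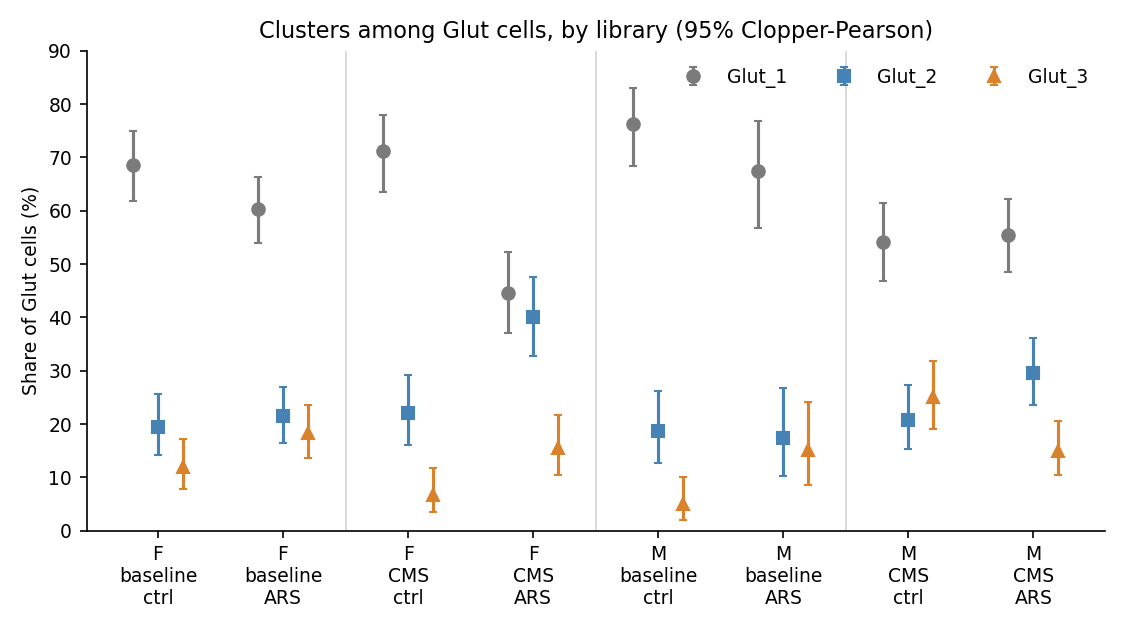
Share of each cluster among the Glut cells of a library (vertical axis, percent) for the 8 libraries, with exact 95% Clopper-Pearson intervals as bars. Glut_2 stands out at 40.0% in female CMS ARS and 29.6% in male CMS ARS mice, and Glut_3 ranges from 5.04% to 25.0% among controls.

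None of these fractions passed the test for stress. On the log2 odds of a cluster within its type, limma called 0 of 26 clusters between stressed and control mice (0%), and 0 had an unadjusted p below 0.05. The log2 difference in odds was -0.67 for Glut_1 (SE 0.31, 95% interval -1.38 to 0.04, limma adjusted p = 0.656), 0.49 for Glut_2 (SE 0.25, 95% interval -0.10 to 1.08) and 0.70 for Glut_3 (SE 0.52, 95% interval -0.51 to 1.91), with the same adjusted p for each. Without the female CMS control library the Glut_1 value was -0.35 and that of Glut_2 0.33, and without the female CMS ARS library the Glut_2 value was 0.28 (neither was called). The stress call for Glut_3 turned on the male CMS control library, which held the highest Glut_3 fraction. Without it the log2 difference was 1.33 (limma adjusted p = 0.0481, from 0.0481 to 0.953 over the alternatives for this value).

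By cohort, Glut_1 made up 56.3% ± 11.0 (SD, n = 4) of Glut cells in CMS and 68.2% ± 6.53 in baseline libraries, and Glut_2 28.1% ± 8.81 and 19.2% ± 1.69. The log2 odds differed by -0.72 for Glut_1 (SE 0.31, 95% interval -1.44 to -0.01, unadjusted p = 0.0468, limma adjusted p = 0.129), by 0.67 for Glut_2 (SE 0.25, 95% interval 0.08 to 1.26, unadjusted p = 0.0313, limma adjusted p = 0.116) and by 0.34 for Glut_3 (SE 0.52, limma adjusted p = 0.811). Limma called 2 of 26 clusters for cohort (7.69%), and no Glut cluster was among them. A like shift was present in GABA neurons, where GABA_2 made up 43.3% ± 5.34 of GABA cells in CMS and 33.9% ± 1.18 in baseline libraries. The log2 odds of GABA_2 differed by 0.57 (SE 0.20, unadjusted p = 0.0206, limma adjusted p = 0.0894), which was not called either. Without the male CMS control library the Glut_1 value was -0.45. Without the female CMS control library it was -1.05 and was called (limma adjusted p = 0.0355, from 0.0355 to 0.698 over the alternatives for this value). Between the sexes the differences were -0.14, 0.29 and -0.13 in the order of the cluster numbers, and limma called 2 of 26 clusters (7.69%), none of Glut neurons.

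Whether the response of the mix to stress differed between cohorts was tested as an interaction. The Glut_2 fraction after chronic stress with restraint stood 17.9 percentage points above its control in female and 8.74 points in male mice, and after restraint alone 2.03 points above in female and -1.31 points in male mice. The CMS minus baseline difference of the stress effect in log2 odds was 0.91 (SE 0.41, unadjusted p = 0.0671, limma adjusted p = 0.927) and limma called 0 of 26 clusters (0%), and 0 had an unadjusted p below 0.05. The same term was -0.19 for Glut_1 and -1.01 for Glut_3. For the difference between the sexes in the stress effect it was -0.78, 0.42 and 0.60 for Glut_1, Glut_2 and Glut_3 (limma adjusted p = 0.996 for each), and limma called 0 of 26 clusters (0%) and 2 had an unadjusted p below 0.05.

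The ratio of Glut to GABA cells compares the cells recovered under these labels, and neurons under any other label do not enter it. It was higher in stressed than in control libraries of female mice and lower in those of male mice. In female mice it was 0.429 in baseline control and 0.718 in baseline ARS, and 0.377 in CMS control and 0.751 in CMS ARS libraries. In male mice it was 0.574 and 0.517 at baseline, and 0.719 and 0.441 in the CMS cohort. Both stressed female libraries thus lay above both female controls, and both stressed male libraries below both male controls. The stressed to control fold was 1.67 (95% interval 1.33 to 2.11) in female baseline and 1.99 (1.53 to 2.60) in female CMS mice. It was 0.900 (0.649 to 1.25) in male baseline and 0.613 (0.480 to 0.784) in male CMS mice. These intervals cover counting error only, and that of the male baseline pair includes 1.

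**Figure D3:**
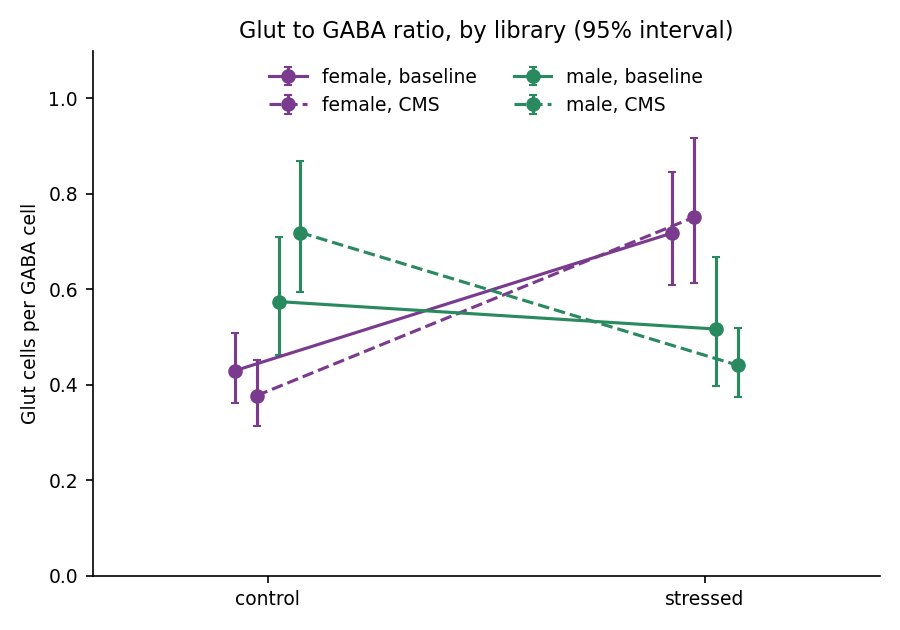
Number of Glut cells per GABA cell (vertical axis) in control and stressed libraries, with a line for each matched pair and 95% counting intervals as bars. Both female pairs go up from control to stressed, to 0.718 and 0.751, and both male pairs go down, to 0.517 and 0.441.

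Over all 4 pairs the stressed minus control difference in the log2 ratio was 0.22 ± 0.79 (SD, n = 4 pairs, exact two-sided sign-flip permutation p = 0.625, where 4 pairs cannot go below 0.13). The female minus male difference of the stress effect was 1.30 on the log2 scale, a 2.46-fold difference. Its exact two-sided permutation p was 0.333, the smallest that 2 pairs against 2 can give. Among cells with a doublet score under 1 the difference was 0.19 (exact permutation p = 1). That filter kept only 175 Glut cells (12.3%) and 208 GABA cells (7.84%). Most of these were of the shallow clusters, with 162 in Glut_1 and 189 in GABA_1. An added limma fit over the log2 ratios of all other types to GABA cells gave 1.29 (SE 0.87, adjusted p = 0.461). The ratio did not differ by sex over the 4 pairs (log2 difference -0.03 ± 0.79, exact permutation p = 1) or by cohort (-0.01 ± 0.26, exact permutation p = 1) beyond the spread of the pairs.

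Only in the female baseline pair did both shares change with the ratio, Glut up and GABA down. In the male CMS pair the Glut share changed in the opposite direction to the ratio, and in the female CMS pair it hardly changed. In the male baseline pair the GABA share was lower, which by itself raises the ratio. In female baseline mice the Glut share was 1.21-fold that of the control and the GABA share 0.722-fold. In female CMS mice the Glut share was 0.976-fold and the GABA share 0.490-fold. In male CMS mice the Glut share was 1.19-fold and the GABA share 1.94-fold, and in male baseline mice they were 0.638-fold and 0.709-fold. The sex by stress term in numbers of cells was 0.26 log2 for Glut (SE 0.49, edgeR adjusted p = 0.871) and -1.06 for GABA neurons (SE 0.49, edgeR adjusted p = 0.30), where edgeR called 0 of 17 types (0%) and 2 had an unadjusted p below 0.05.

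The opposite directions were present in the shallow clusters, while among the deep ones 3 of 4 pairs went up and the male CMS pair went down. The ratio of Glut_2 and Glut_3 together to GABA_2 was 0.380 in female baseline control, 0.847 in female baseline ARS, 0.258 in female CMS control and 0.822 in female CMS ARS mice. In male mice it was 0.418, 0.50, 0.871 and 0.461, so that the male baseline pair was higher when stressed here. The ratio of Glut_1 to GABA_1 was 0.457, 0.652, 0.464 and 0.678 in female and 0.650, 0.525, 0.627 and 0.426 in male mice. The female minus male difference of the stress effect was 1.74 log2 among deep and 0.96 log2 among shallow clusters, each with an exact permutation p of 0.333, again the smallest possible. These splits were added after the data were seen.

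Between the cohorts, Glut neurons as a type had more UMIs and more genes per cell, and the clusters were used to ask how much of this lay within them. The median Glut cell had 3972 UMIs in female baseline control, 3968 in female baseline ARS, 3699 in female CMS control and 5122 in female CMS ARS mice. In male mice it had 2912, 3259, 5421.5 and 4906. The difference between cohorts was 0.44 log2 for UMIs (SE 0.13, limma adjusted p = 0.0436) and 0.31 log2 for genes (1.24-fold, 95% interval 1.11 to 1.39, limma adjusted p = 0.00349). These limma values use a spread shared with the other types. From the Glut medians alone, the UMI difference had an SD of the pairs of 0.42 and was above 0 in 3 of 4 pairs. Its exact two-sided sign-flip permutation p was 0.25. Limma called 3 of 16 types for UMIs (18.8%) and 4 of 16 for genes (25%). GABA neurons were called in the same direction, with 0.34 log2 in UMIs (SE 0.11, limma adjusted p = 0.0436) and 0.29 in genes (SE 0.08, limma adjusted p = 0.00349). The UMI call was lost without the male baseline ARS (0.37, limma adjusted p = 0.280), male CMS control (0.30, 0.0811) or male CMS ARS library (0.43, 0.112), and the genes call without the male CMS control library (0.21, limma adjusted p = 0.0617). Among cells with a doublet score under 1, which kept 175 Glut cells, both calls were lost (UMIs 0.098, limma adjusted p = 0.733, and genes 0.056, limma adjusted p = 0.838). The UMI call was also lost with trend and robust moderation (limma adjusted p = 0.0619) and with types of at least 5 cells per library (limma adjusted p = 0.101).

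Within single clusters no such difference was called in the values as reported. The Glut_1 median was 2899.5 in female baseline control, 2869 in female baseline ARS, 2843.5 in female CMS control and 2967 in female CMS ARS mice, and 2588, 2344, 3227 and 3342.5 in the male libraries. The 4 female values lay close together, between 2843.5 and 2967, and the male CMS libraries were above both male baseline ones. The cohort difference within Glut_1 was 0.21 log2 (1.16-fold, SE 0.10, 95% interval of the fold 0.993 to 1.35, limma adjusted p = 0.344). For Glut_2, with library medians of 6815 to 7961 at baseline and 7376 to 7996.5 in the CMS cohort, it was 0.07 log2 (1.05-fold, SE 0.08, 95% interval of the fold 0.926 to 1.20, limma adjusted p = 0.641). Limma called 0 of 29 clusters for cohort in UMIs (0%), and 4 had an unadjusted p below 0.05. It also called 0 in genes (0%), with 5 unadjusted, where Glut_1 had 0.16 log2 (SE 0.07, limma adjusted p = 0.257) and Glut_2 0.03 (SE 0.06, limma adjusted p = 0.704). In single libraries 22.5% to 48.6% of Glut_2 cells lay within 200 genes of the highest number in the data. A difference in its upper tail may thus be missed in any comparison of Glut_2 depth. Relative to the library median, the Glut_1 difference in genes was 0.32 and was called (limma adjusted p = 0.0427), and with a doublet score under 1 it was -0.0022 (limma adjusted p = 0.977).

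Glut_3 had too few cells in the male baseline control library for that fit, which asked for 10 cells per library. An added fit over 31 clusters with at least 5 cells in every library gave a cohort difference of -0.20 log2 in its UMIs (0.871-fold, SE 0.10, limma adjusted p = 0.414) and of -0.15 in its genes (SE 0.07, limma adjusted p = 0.230). The point estimate for Glut_3 thus had the opposite sign to those of Glut_1 and Glut_2.

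With the cluster mix held fixed, as the mean of the 3 clusters' log2 medians weighted by their shares in all Glut cells, the cohort difference was 0.12 log2 (1.09-fold, SD of the pairs 0.12). It was above 0 in 4 of 4 pairs (exact two-sided sign-flip permutation p = 0.13, the smallest possible). With equal weights for the clusters it was 0.03, and without either male stressed library (baseline ARS or CMS ARS), whose pair then drops out, 0.07. The levels at a fixed mix ran from 3691 to 4078 UMIs in baseline and from 4100 to 4494 in CMS libraries. The mean log2 UMIs of all Glut cells differed by 0.26 between the cohorts. Of this, 0.15 (56.0%) went with the mix of clusters, in the same direction in 3 of 4 pairs, and 0.11 lay within the clusters, in the same direction in 4 of 4 pairs. The part within clusters was 0.12 for Glut_1, 0.02 for Glut_2 and -0.03 for Glut_3. Within Glut_1 it was 0.20 and 0.23 in the 2 male pairs and 0.02 in each female pair. The clusters themselves differ in depth, and all 190 Glut cells with fewer than 2000 UMIs were in Glut_1. A shift in depth could thus move cells between clusters and count as mix, so the split does not separate mix from depth.

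For stressed against control mice, no difference in depth within clusters passed the test. The UMI differences were -0.01 log2 in Glut_1 (95% interval of the fold 0.850 to 1.16, limma adjusted p = 0.979) and -0.06 in Glut_2 (0.843 to 1.09, limma adjusted p = 0.979). Limma called 0 of 29 clusters (0%), and 1 had an unadjusted p below 0.05. Glut_3 had -0.08 in the added fit (0.810 to 1.11, limma adjusted p = 0.989). The mean log2 UMIs of all Glut cells stood 0.13 higher in stressed mice, of which 0.14 went with the mix and -0.02 (SD of the pairs 0.01) lay within clusters. The part within clusters was above 0 in 0 of 4 pairs, where the part for Glut_1 was 0.02 and that for Glut_2 -0.02. As for cohort, this split does not separate a change of mix from a shift in depth. Between the sexes the UMI differences were 0.03 in Glut_1, -0.02 in Glut_2 and -0.16 in Glut_3 (limma adjusted p = 0.868, 0.863 and 0.808), the last from the added fit, and limma called 0 of 29 clusters (0%), and 1 had an unadjusted p below 0.05.

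Glut_3 depth under stress differed in direction between the cohorts. Its median UMIs were 6546 in female baseline control and 7214 in female baseline ARS mice, and 7317 and 8060.5 in male ones. In the CMS cohort they were 6625 in control and 5414 in stressed females, and 7382.5 and 6040.5 in males. Both stressed baseline libraries were above their controls and both stressed CMS libraries below. The CMS minus baseline difference of the stress effect was -0.43 log2 (0.742-fold, SE 0.07, unadjusted p = 0.00251, limma adjusted p = 0.0779), the smallest p of the 31 clusters in the added fit, and it did not pass the threshold. Over the 12 alternatives the value ran from -0.44 to -0.30 log2 and its adjusted p from 0.108 to 0.763, so none of them was called. The medians rest on 7 to 48 cells per library.

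**Figure D4:**
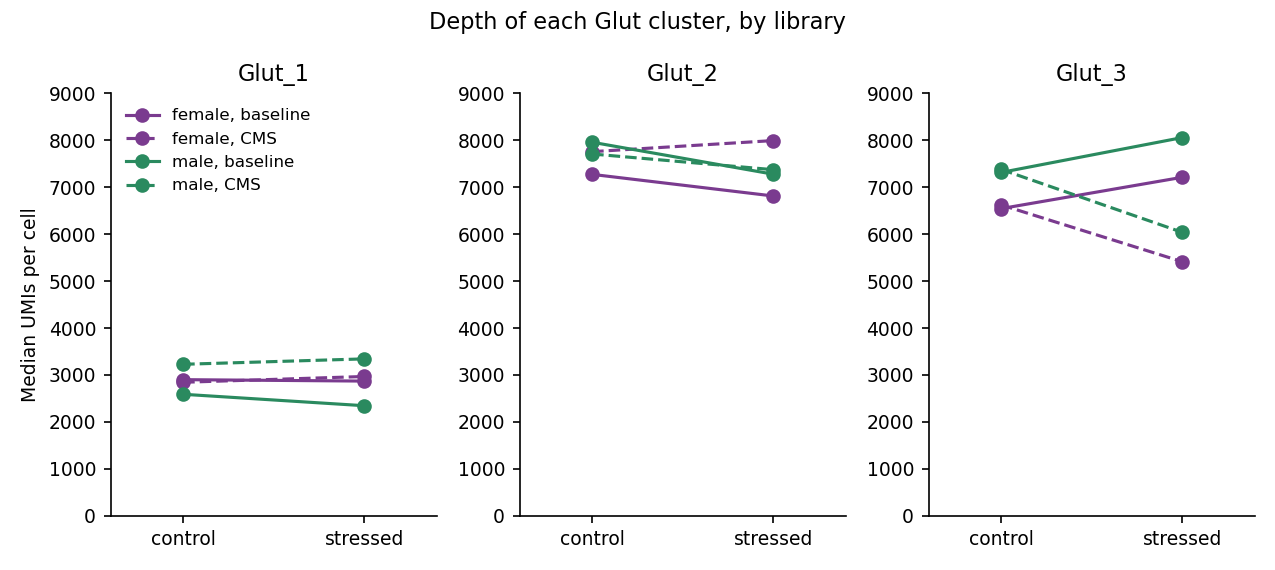
Median UMIs per cell (vertical axis) of each Glut cluster in control and stressed libraries, 1 panel per cluster and 1 line per matched pair of libraries. Glut_1 lies between 2344 and 3342.5 throughout, while the Glut_3 lines go up in the baseline pairs and down, to 5414 and 6040.5, in the CMS pairs.

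The mitochondrial share within clusters passed the test in no comparison of stress, sex or cohort. Glut_1 had 14.6% ± 0.879 (SD, n = 4) in stressed and 14.6% ± 1.34 in control libraries, a difference of -0.06 percentage points (SE 0.63, limma adjusted p = 0.926), and limma called 0 of 29 clusters (0%), and 1 had an unadjusted p below 0.05. It had 13.9% ± 0.515 in CMS and 15.3% ± 1.02 in baseline libraries, a difference of -1.37 points (SE 0.63, 95% interval -3.01 to 0.26, limma adjusted p = 0.201). Limma called 3 of 29 clusters for cohort (10.3%), none of Glut neurons. Glut_2 had 3.24% ± 0.235 in female and 3.93% ± 0.501 in male libraries, a difference of -0.69 points (SE 0.28, unadjusted p = 0.0551, limma adjusted p = 0.419), and limma called 0 of 29 clusters for sex (0%), and 2 had an unadjusted p below 0.05.

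A value that passed the test within a Glut cluster was the G2/M score of Glut_1, which was higher in female mice. Library means were -0.0185 in baseline control, -0.0148 in baseline ARS, -0.0191 in CMS control and -0.0156 in CMS ARS females, and -0.0291, -0.0239, -0.0288 and -0.0243 in males. The groups did not overlap, and the female value was the higher in 4 of 4 pairs. The mean was -0.0170 ± 0.00212 (SD, n = 4) in female and -0.0265 ± 0.00282 in male libraries, a difference of 0.00953 score units (SE 0.00138, 95% interval 0.00611 to 0.0129, limma adjusted p = 0.0141). This is small beside the SD over Glut_1 cells of 0.0390. Limma called 6 of 29 clusters for this score (20.7%), 5 of them higher in female mice. GABA_2 was among these (0.00760, SE 0.00188, limma adjusted p = 0.0420), while GABA_1 was not called (0.00520, limma adjusted p = 0.241).

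The difference was 0.00773 in Glut_2 (SE 0.00310, limma adjusted p = 0.155) and 0.00648 in Glut_3 in the added fit (SE 0.00495, limma adjusted p = 0.391), and Glut neurons as a type had 0.00811 (SE 0.00186, limma adjusted p = 0.0281), where limma called 4 of 16 types (25%). The call of the type did not hold when any library other than the 2 CMS ARS ones was left out, 6 libraries in all (0.00672 to 0.00834, limma adjusted p = 0.0676 to 0.0992). Nor did it hold with matched pairs as blocks (limma adjusted p = 0.0516), relative to the library (0.00436, 0.188) or with a doublet score under 1 (0.00729, 0.322). Cells that were not Glut differed in the same direction, with library means of -0.00676 ± 0.00163 in female and -0.0102 ± 0.00189 in male libraries. Relative to the library's own level the Glut_1 difference was 0.00579 and was no longer called (limma adjusted p = 0.122). The call was also lost with cells of a doublet score under 1 alone (0.00669, limma adjusted p = 0.373) and without the male baseline control (0.00919, limma adjusted p = 0.0552), male baseline ARS (0.00970, 0.0664) or male CMS ARS library (0.00968, 0.0517). Female libraries were also the larger ones in cells, and the part of library size in the score was not tested.

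**Figure D5:**
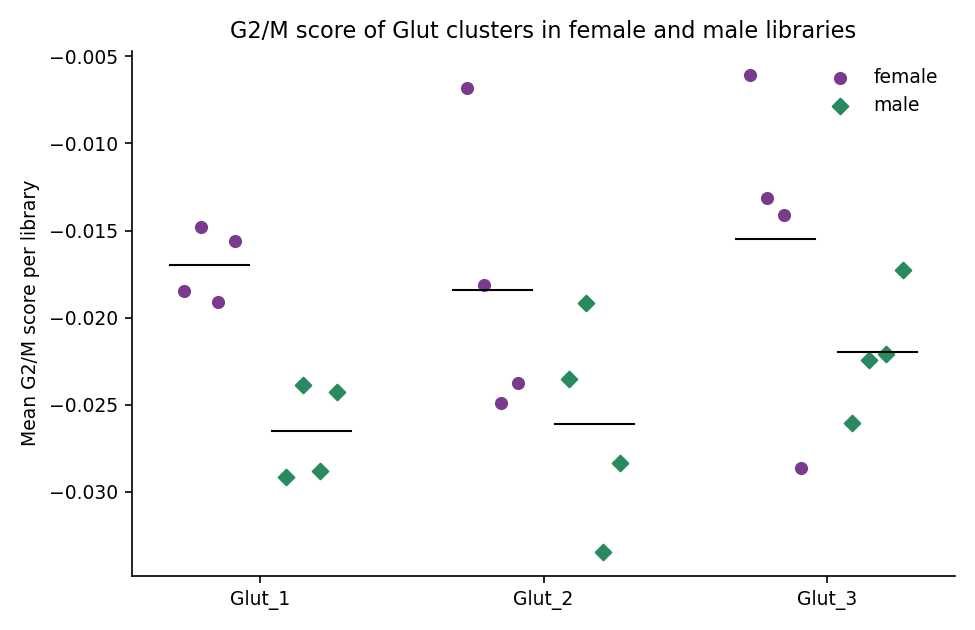
Mean G2/M score per library (vertical axis, score units) of each Glut cluster in female and male libraries, with 1 point per library and a line at the mean of the 4. In Glut_1 the female points, -0.0191 to -0.0148, lie above all male points, -0.0291 to -0.0239, while the points overlap in Glut_2 and Glut_3.

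The other score comparisons called no Glut cluster. For stress, the G2/M score of Glut_1 differed by 0.00424 (SE 0.00138, unadjusted p = 0.0232, limma adjusted p = 0.224) and its S score by 0.00606 (SE 0.00227, unadjusted p = 0.0361, limma adjusted p = 0.523). Limma called 0 of 29 clusters in each (0%), with 4 and 2 at an unadjusted p under 0.05. By cohort, the G2/M score of Glut_2 differed by -0.0107 (SE 0.00310, unadjusted p = 0.0143, limma adjusted p = 0.160), with 0 of 29 clusters called (0%) and 4 unadjusted. The doublet score of Glut_1 differed by 0.166 (SE 0.0567, unadjusted p = 0.0334, limma adjusted p = 0.138), where 2 of 29 clusters (6.9%) were called. The stress effect on the doublet score of Glut_2 differed between the sexes by -0.188 (SE 0.0624, unadjusted p = 0.0404, limma adjusted p = 0.266), where 1 of 29 clusters (3.45%) was called.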

How the data were processed

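Only a table with 1 line per cell was used, and each cell was joined to 1 of the 8 libraries through the deposited sex, experiment and condition names. The experiment name for restraint alone was taken as the baseline cohort. Per the submitters' processing notes, the authors used Cell Ranger 3.0.2 and 3.1.0, the mm10 genome and Seurat 3.1.3. Per the file headers, UMIs and genes per cell are counts. The deposited mitochondrial share is a fraction, and it was multiplied to percent. Doublet, S and G2/M columns hold deposited scores, and no source used here names their tools. The types and clusters are the authors', and no further filter on cells or doublets was applied.

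Numbers of cells were tested with the edgeR 4.0.16 quasi-likelihood test in R 4.3.3, over types or clusters with at least 80 cells, with library size set to the library's total of cells and no normalization or trend. Fractions within types (log2 odds, 0.5 cells added), library medians of UMIs, genes and mitochondrial percent, and library means of scores went into limma 3.58.1 fits, the measures over clusters or types with at least 10 cells in every library. Each fit held sex, cohort and exposure, and an interaction was added singly. The Benjamini-Hochberg adjustment ran over all clusters or types of a fit, with a threshold of 0.05, and not across fits. Fractions in a type with 2 clusters mirror each other and count as 2 in that family. The Glut to GABA ratio and the depth at a fixed mix were tested by exact two-sided permutation over matched pairs in Python 3.11.15. Alternatives included TMM factors, DESeq2 1.42.0, other filters on cells, the matched pair as a block and each library left out. The edgeR test of cluster numbers and the limma test of fractions were checked on simulated data, with effects larger than the Glut values reported here. The fits of UMIs, genes, mitochondrial percent and scores were not simulated. The naming rule covered the 3 Glut clusters and the Glut and GABA types. Members and tests were chosen with earlier results of these data known.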

Additional observations from a re-analysis of the deposited data

Results flagged for a closer look

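In all, 22 groups of 4 libraries were checked for a library far from the rest, and chance flags about 1 in 20 of them. The male CMS control library had 5.08% Glut cells, apart from the other control libraries at 3.60% to 3.76%. The female baseline ARS library had 18.3% Glut_3 among Glut cells, apart from the other stressed libraries at 15.0% to 15.4%.

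In 28 comparisons the direction of the stress effect was set side by side between the sexes or the cohorts, with 2 pairs of libraries each, and 6 had opposite directions throughout. With so few pairs, opposite directions can also arise by chance, and the values of Glut_3 below come from the same cells. The Glut to GABA ratio differed by 0.499 between the mean stress effects of female and male pairs (stress effects above 0 in females). The mitochondrial share of Glut_1 differed in the same sense by 1.77 percentage points, a term that limma did not call (adjusted p = 0.954). Between the CMS and baseline pairs, the stress effect on median UMIs differed by 256.8 in Glut_1 (limma adjusted p = 0.889). In Glut_3 the difference between cohorts was -1982 in UMIs, -469.2 in genes and -0.765 percentage points in the mitochondrial share. The first of these had a limma adjusted p of 0.0779 and the second of 0.424, in the fit with at least 5 cells per library. In Glut_3 the control library of male baseline mice held 7 cells.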

How the results depend on the processing

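Of 1702 alternative values for 121 results, 1640 counted as the same, 22 as weaker, 3 as stronger, 24 as reversed and 13 as moved. A change of sign counted as the same where both values were uncalled and within 1 SE of 0 (110 values) or, for the ratio and the fixed mix, where the value moved by less than the SD of the pairs. The limits are the few cells of Glut_3, 1 library per group, and the doublet filter: a score under 1 kept 175 Glut cells (12.3%), 162 of them Glut_1, 12 Glut_2 and 1 Glut_3. The causes of the changes below were not tested. No paired analysis by replicate number was possible because the labels give none; the matched pair served as a block instead.

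With a doublet score under 1, the sex by stress value of the log2 ratio was 0.19, the Glut cohort values 0.10 (UMIs) and 0.056 (genes), and the G2/M sex values 0.00669 (Glut_1) and 0.00729 (Glut). The same filter reversed Glut_3 fraction by stress (-0.15), Glut_2 fraction by cohort and stress (-1.92), Glut_1 by sex in UMIs (-0.24), genes (-0.11) and mitochondrial percent (-1.42), Glut_1 by cohort in genes (-0.0022) and mitochondrial percent (5.03), Glut by sex in UMIs (-0.23) and genes (-0.16), and Glut mitochondrial percent by stress (0.37) and cohort (4.53). Relative to the library, the G2/M sex values were 0.00579 (Glut_1, leaving 0 Glut clusters called, as the doublet filter did) and 0.00436 (Glut). There Glut_1 genes were called by cohort (0.32, limma adjusted p = 0.0427, 1 Glut cluster), and reversals were Glut_2 genes by sex (0.10) and, in Glut_3, UMIs by sex and stress (0.25), genes by sex (0.013) and genes by cohort (0.0013). The Glut cohort UMIs (0.44) were not called with trend and robust moderation (limma adjusted p = 0.0619) or 5 cells per library (0.101), nor the Glut G2/M value (0.00811) with the block (0.0516).

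With single libraries left out, the log2 ratio by cohort and stress ran from -1.0 to 0.70. Glut by cohort ran from 0.30 to 0.60 in UMIs and 0.21 to 0.42 in genes, and the G2/M sex values from 0.00919 to 0.00979 (Glut_1) and 0.00672 to 0.00935 (Glut). Called Glut clusters ran from 0 to 1 for fractions by stress, fractions by cohort and G2/M by sex. Further ranges crossed 0 without a reversal in this sense. Those with a reversal were, in cell numbers, Glut_2 by sex (-0.29 to 0.27), Glut_3 by sex and stress (-0.77 to 2.17), Glut_1 by sex and stress (-0.66 to 0.64) and Glut_1 by cohort and stress (-0.49 to 0.77). In fractions they were Glut_3 by sex (-0.61 to 0.50), Glut_3 by sex and stress (-0.88 to 2.08) and Glut_1 by cohort and stress (-0.98 to 0.60). In measures they were Glut_1 mitochondrial percent by stress (-0.62 to 0.57) and Glut UMIs by cohort and stress (-0.33 to 0.49).

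Calls over all clusters also varied. Numbers of cells gave 0 to 2 by sex (0 as reported) and 1 to 4 by cohort (1, and 4 with DESeq2). Fractions gave 0 to 1 by stress (0), 0 to 4 by sex (2) and 0 to 5 by cohort (2). By cohort, UMIs gave 0 to 4 (0), genes 0 to 2 (0), mitochondrial percent 0 to 4 (3) and doublet score 0 to 4 (2). The G2/M score by sex gave 0 to 5 (6). Over types, calls by cohort ran from 0 to 5 for UMIs (3) and 1 to 4 for genes (4), and G2/M by sex from 0 to 7 (4).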
